A study of Mus musculus with 15 samples.

Results

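Prostaglandin genes were followed in kidney RNA bound or not bound to tagged ribosomes of collagen-producing cells, before and after ureteral obstruction. The list held Ptgs1, Ptgs2, Ptges, Ptgis, Ptger1, Ptger2, Ptger3, Ptger4, Ptgfr and Hpgd, chosen by name for their place in the pathway, with every probe set that the array's annotation maps to them. Of these 10 genes, 9 had a probe set, 20 in all, out of 18193 genes read on the arrays, and Ptgs1 was not analysed here. All mice carried the transgene Col1a1-eGFPL10a, in which the collagen1α1 promoter and enhancer drive a fusion of eGFP with the ribosomal protein L10a. TRAP (translating ribosome affinity purification) pulls such ribosomes out of a lysate with the mRNA on them, which gives the bound fraction, and the RNA left behind is the unbound fraction. The bound fraction was taken on day 0 from sham-operated kidneys and on day 2 and day 5 after UUO (unilateral ureteral obstruction, in which surgery stops urine leaving the kidney), and the unbound fraction on day 5 and day 0. Each of these 5 groups had 3 arrays, 15 in all. The labels give strain C57/129sv, both sexes and ages P14-P300 for every group, describe bound RNA as that of medullary periarterial fibroblasts called pericytes, and describe unbound RNA as kidney medulla. Nothing in the labels tells whether replicate arrays stand for separate animals or for pools, and the p-values therefore cover only the spread seen among these samples. With 3 arrays in each group, precision is limited. The labels do not pair bound with unbound arrays, which were compared as unpaired groups. Ribosomes are tagged wherever the transgene is active, so other cells that use this promoter can contribute to the bound fraction.

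Prostanoids are short-range lipid signals made from arachidonic acid. Cyclooxygenases convert it to a shared precursor, and terminal synthases turn the precursor into single products such as PGE2 and prostacyclin. In the kidney, interstitial cells and tubule segments of the medulla make PGE2, which acts on vascular tone and on salt and water handling through the receptors EP1, EP2, EP3 and EP4, and an oxidizing enzyme then inactivates it.

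Signals are given as log2 of the quantile-normalized intensity plus 1, and group means carry the SD of 3 arrays. Differences are given on the same log2 scale ± standard error, with adjusted p-values from limma, fitted over 16864 genes with Benjamini-Hochberg adjustment and called below 0.05. Because a signal depends on the probe, no gene's level is set against another's. The highest of the negative-control probe sets of an array, at 3.41 to 5.09, served as its background limit. The hybridization controls of 4 arrays (1 in each group except the bound day 0 group) averaged 12114 to 12905 in deposited intensity, against 4727 to 5864 on the other 11, and these are called the bright arrays. One bound array of day 5, array 11, had a Gapdh 5′ to 3′ ratio of 0.0269, against 0.178 to 0.583 on the others. The part of brightness and RNA quality in the results was not tested. For the genes of the list, calls that ended without these arrays are named with the result. For markers and other prostanoid genes, calls are given with all arrays only. Without the bright arrays, 1 of 16864 genes was called for enrichment on day 5, against 2380 with all arrays. Fibroblast markers (Col1a1, Col1a2, Col3a1, Dcn, Lum and Pdgfra) were higher in bound than in unbound RNA for 5 of 6 genes on day 0 and 2 of 6 on day 5, and pericyte and smooth muscle markers (Pdgfrb, Rgs5, Acta2, Myh11, Cspg4 and Des) for 4 of 6 and 3 of 6. On day 0, all 3 measured podocyte markers were higher in bound RNA as well (median difference 5.55), and on day 5, 2 of 3 were (median 3.16). The medians on day 0 and day 5 were 2.00 and 0.77 for fibroblast markers and 2.01 and 1.49 for pericyte and smooth muscle markers. The podocyte marker Nphs1 was at the background limit in unbound RNA on both days. In bound RNA all 3 podocyte markers were lower on day 5 than on day 0 (median difference -1.99).

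Ptgis and Ptges were higher in bound than in unbound RNA on both days, Ptger2 rose in bound RNA after obstruction, Ptger3 and Ptgfr fell there by day 5, and Hpgd was lower in bound than in unbound RNA on day 5. In the enrichment comparison of day 0, 3 of the 9 genes were higher in bound RNA and 0 lower, beside 8.91% of all genes called (4.81% higher and 4.10% lower), and the groups did not overlap for 8 of 9, beside 36.8% of all genes. On day 5, 3 genes were higher in bound RNA and 2 lower, beside 14.1% of all genes called (6.37% higher and 7.74% lower), and 5 of 9 did not overlap, beside 43.0% of all genes. Within bound RNA, 1 gene rose and 0 fell on day 2 against day 0, beside 9.25% called (5.60% higher and 3.65% lower), and 2 of 9 did not overlap, beside 21.5%. On day 5 against day 0, 1 rose and 2 fell, beside 23.7% called (13.7% higher and 9.99% lower), and 5 of 9 did not overlap, beside 40.4%. On day 5 against day 2, 1 rose and 1 fell, beside 0.587% called (0.510% higher and 0.0771% lower), and 2 of 9 did not overlap, beside 14.7%. In unbound RNA of day 5 against day 0, 1 rose and 1 fell, beside 10.4% called (6.43% higher and 3.93% lower), and 7 of 9 did not overlap, beside 45.9%. The comparisons share groups: both comparisons with bound day 0 use the same 3 arrays, and bound and unbound arrays of day 5 and day 0 enter both the enrichment and the time comparisons.

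The median difference of the 9 genes lay near that of all genes in some comparisons and away from it in others. It was -0.26, beside -0.13 over all genes, for enrichment on day 0 and 0.19, beside 0.03, on day 5. It was -0.74, beside 0.00, for bound day 2 against day 0 and -0.10, beside 0.12, for bound day 5 against day 0. For bound day 5 against day 2 it was 0.50, beside 0.09, and for unbound day 5 against day 0 it was -0.13, beside 0.01. Among all genes called on the quantile scale, 45.2% were higher for enrichment on day 5, 57.9% for bound day 5 against day 0 and 62.1% for unbound day 5 against day 0, and with arrays centred on their medians instead these shares were 67.9%, 68.8% and 46.8%. That centring shifted the median of all genes by 0.39, 0.22 and -0.23 in these comparisons. In bulk RNA, fewer cells of a type and less RNA per cell cannot be told apart.

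**Figure D1:**
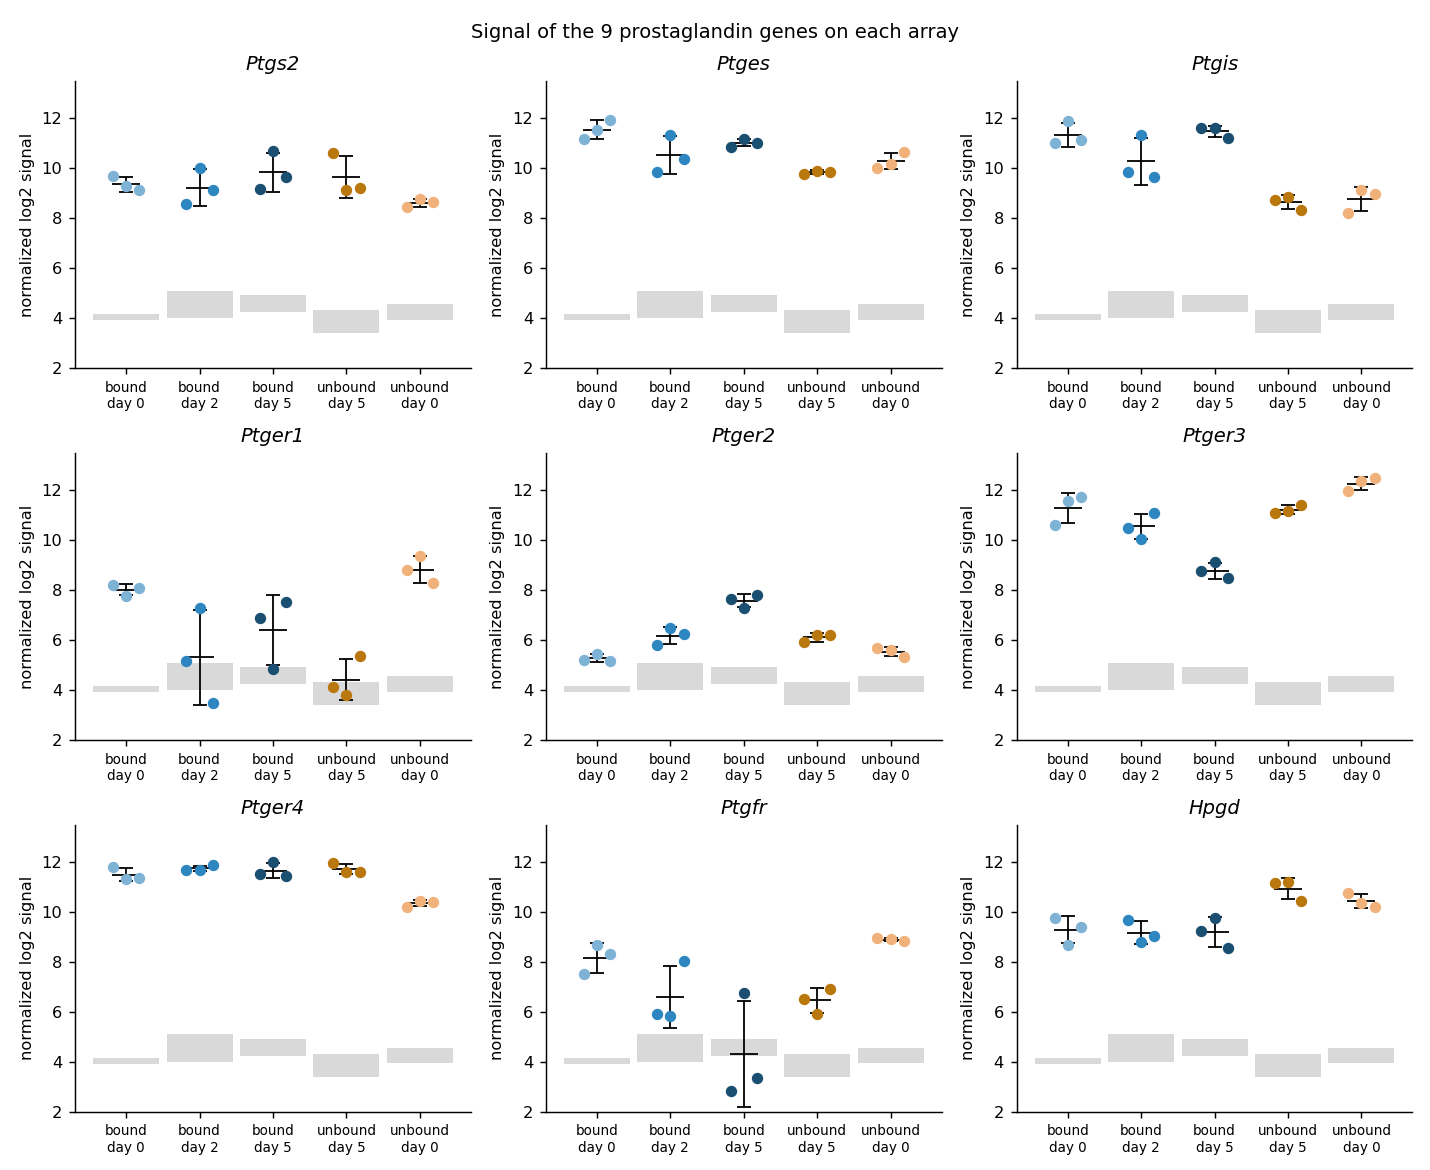
Normalized log2 signal of each of the 9 genes on all 15 arrays, as points with the group mean and SD, in bound RNA of day 0, day 2 and day 5 and in unbound RNA of day 5 and day 0. Grey bands give the range of the background limit in each group. Ptgis stands apart between bound and unbound RNA, Ptger2 is highest in bound RNA of day 5 and Ptger3 is lowest there.

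**Figure D2:**
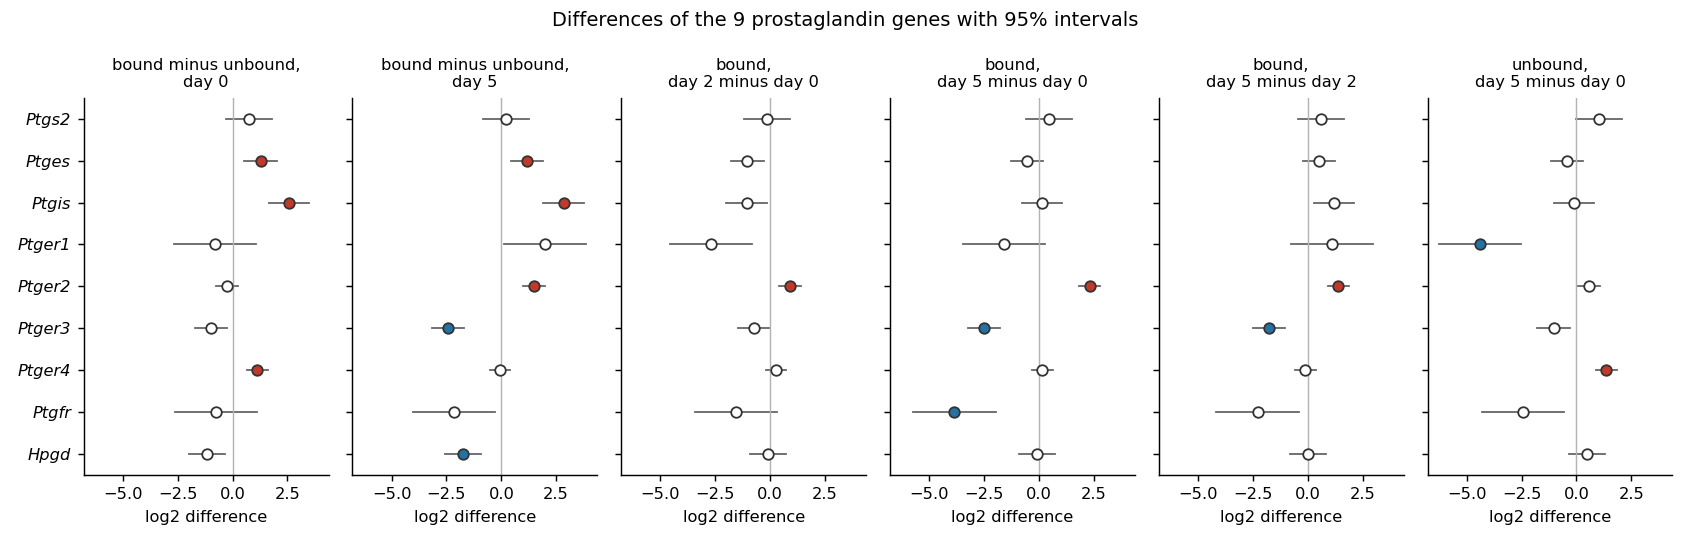
Log2 differences (x axis) with 95% confidence intervals for the 9 genes in 6 comparisons, with filled points where the difference passed the threshold, red for higher and blue for lower. Ptgis is filled in both enrichment panels and Ptger2 in all 3 bound time panels.

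Ptgis, the synthase that makes prostacyclin, was the gene of the list with the largest enrichment in bound RNA. In bound RNA its log2 signals were 11.00, 11.90 and 11.15 on day 0, 9.85, 11.35 and 9.64 on day 2, and 11.62, 11.60 and 11.23 on day 5, while in unbound RNA they were 8.74, 8.86 and 8.33 on day 5 and 8.22, 9.12 and 8.96 on day 0. Every bound array lay above every unbound array. The group means were 11.48 ± 0.22 in bound RNA of day 5, 11.35 ± 0.48 in bound RNA of day 0, 10.28 ± 0.93 in bound RNA of day 2, 8.77 ± 0.48 in unbound RNA of day 0 and 8.65 ± 0.28 in unbound RNA of day 5, and neighbours in this order overlapped except across the step between the fractions. The difference was 2.58 ± 0.42 on day 0 (5.98-fold higher in bound RNA, adjusted p = 0.00395) and 2.84 ± 0.42 on day 5 (7.15-fold, adjusted p = 0.0032). The day 5 call was lost without the bright arrays (adjusted p = 0.0764), a setting in which 1 of all genes was called. The value was 2.90 in the bright pair and 2.81 in the other arrays. Against bound day 0, the difference of Ptgis was 0.13 on day 5 (95% interval -0.79 to 1.05) and -1.07 on day 2 (adjusted p = 0.142), and neither passed.

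Ptges, the inducible synthase that makes PGE2 downstream of the cyclooxygenases, was also higher in bound RNA. It gave log2 signals of 11.19, 11.53 and 11.95 in bound RNA and 10.01, 10.19 and 10.64 in unbound RNA on day 0. On day 5 its signals were 10.88, 11.16 and 11.03 in bound RNA and 9.79, 9.91 and 9.87 in unbound RNA. Bound and unbound arrays did not overlap on either day, and the 3 bound arrays of day 2 spread from 9.86 up to 11.35. Ptges was 2.42-fold higher in bound RNA on day 0 (1.28 ± 0.34, adjusted p = 0.0367) and 2.25-fold on day 5 (1.17 ± 0.34, adjusted p = 0.0389). Both calls lay close to the threshold: leaving out any of arrays 2 to 6 ended the first, leaving out any of the 6 arrays involved ended the second, and over all alternatives the adjusted p-values reached 0.194 and 0.224. Without the bright arrays the differences were 1.45 on day 0 (adjusted p = 0.120) and 1.17 on day 5 (adjusted p = 0.224), and without array 11 that of day 5 was 1.10 (adjusted p = 0.0912). In bound RNA, Ptges differed from day 0 by -1.03 on day 2 (adjusted p = 0.077) and by -0.53 on day 5 (adjusted p = 0.272).

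Ptgs2, the inducible cyclooxygenase that supplies the precursor, did not pass in any comparison. Log2 signals of Ptgs2 in bound RNA were 9.70, 9.28 and 9.12 on day 0, 8.56, 10.01 and 9.12 on day 2, and 9.17, 10.69 and 9.67 on day 5, and in unbound RNA 10.61, 9.13 and 9.20 on day 5 and 8.44, 8.77 and 8.65 on day 0. The day 0 unbound arrays were the lowest as a group, without overlap with bound day 0, bound day 5 or unbound day 5, while the later groups each held 1 array above 10. The difference between bound and unbound RNA was 0.75 on day 0 (95% interval -0.30 to 1.80, adjusted p = 0.367), and that between unbound day 5 and unbound day 0 was 1.03 (95% interval -0.02 to 2.08, adjusted p = 0.214). In bound RNA of day 5 against day 0 it was 0.48 (95% interval -0.57 to 1.53). These intervals hold changes above 2-fold, so 3 arrays per group leave the size and direction of any Ptgs2 change unsettled. The second, dimmer probe set gave -0.67 for unbound day 5 against day 0, without passing. In both of these groups 2 of its 3 arrays were at or below the background limit. For enrichment on day 5 the first set gave 0.19 and the second 2.36, and neither passed.

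The receptor genes showed the clearest changes with time. Ptger1 had a called time change but no entry among the promoters used. Promoter sequences of the 4 other receptor genes with a called time change are printed. Each runs 5′ to 3′ over the 250 bases before the transcription start that RefSeq gives on build GRCm38.p6, with capitals for matches to the GC box GGGCGG or the CCAAT box CCAAT on either strand. They lie at chr14:44987861-44988110 on the plus strand, chr3:157566626-157566875 on the plus strand, chr15:5244188-5244437 on the minus strand and chr3:151837529-151837778 on the minus strand.
Ptger2: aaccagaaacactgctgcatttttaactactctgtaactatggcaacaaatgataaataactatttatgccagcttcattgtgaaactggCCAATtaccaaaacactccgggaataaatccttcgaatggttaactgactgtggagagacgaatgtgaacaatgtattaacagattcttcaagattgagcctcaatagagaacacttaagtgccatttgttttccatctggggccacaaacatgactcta
Ptger3: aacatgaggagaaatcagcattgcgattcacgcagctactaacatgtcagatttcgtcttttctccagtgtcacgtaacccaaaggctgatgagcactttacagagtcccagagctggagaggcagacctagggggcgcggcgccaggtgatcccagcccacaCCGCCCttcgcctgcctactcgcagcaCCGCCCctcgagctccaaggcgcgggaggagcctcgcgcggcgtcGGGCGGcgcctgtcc
Ptger4: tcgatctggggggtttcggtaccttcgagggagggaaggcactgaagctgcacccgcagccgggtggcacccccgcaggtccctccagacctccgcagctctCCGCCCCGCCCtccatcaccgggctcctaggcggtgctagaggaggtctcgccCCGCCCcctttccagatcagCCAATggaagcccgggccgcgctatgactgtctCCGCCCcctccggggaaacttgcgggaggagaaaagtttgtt
Ptgfr: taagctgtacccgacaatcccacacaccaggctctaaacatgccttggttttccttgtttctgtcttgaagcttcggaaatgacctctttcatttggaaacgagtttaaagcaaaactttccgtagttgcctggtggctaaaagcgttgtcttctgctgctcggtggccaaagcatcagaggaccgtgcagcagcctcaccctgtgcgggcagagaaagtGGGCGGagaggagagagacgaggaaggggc

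The GC box was found 3 times for Ptger3, 4 times for Ptger4 (1 pair overlapping), 1 time for Ptgfr and 0 times for Ptger2, and 32.7% of 32851 promoter windows of this length hold it. CCAAT was found 1 time each for Ptger2 and Ptger4 and 0 times for the other two, beside 33.8% of windows. The core of the cyclic AMP response element, TGACG (17.8% of windows), the AP-1 site TGANTCA (6.75%) and the TATA box TATAAA (12.4%) were searched on both strands and matched in none of these 4 windows. A match describes letters only. For Ptger3 the gene bounds in RefSeq's gene table begin upstream of the start used here, so the last 55 bases of its window lie inside the annotated gene, and 2 of its 3 GC box matches reach into them.

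Ptger2 encodes EP2, a PGE2 receptor that raises cyclic AMP. It was the only gene of the 9 to rise in bound RNA at both times against day 0. Bound RNA gave Ptger2 log2 signals of 5.21, 5.45 and 5.15 on day 0, 5.80, 6.49 and 6.25 on day 2, and 7.64, 7.29 and 7.82 on day 5. In unbound RNA they were 5.91, 6.20 and 6.20 on day 5 and 5.68, 5.60 and 5.33 on day 0. The 3 bound groups did not overlap, and all day 5 bound arrays lay above all other arrays. In order, the group means were 7.58 ± 0.27 in bound RNA of day 5, 6.18 ± 0.35 in bound RNA of day 2, 6.10 ± 0.17 in unbound RNA of day 5, 5.54 ± 0.19 in unbound RNA of day 0 and 5.27 ± 0.16 in bound RNA of day 0, and bound day 2 overlapped unbound day 5, as did the lowest pair each other. Ptger2 rose 4.96-fold in bound RNA on day 5 against day 0 (2.31 ± 0.23, adjusted p = 5.24e-05), and this call held under every alternative (1.92 to 2.46). It rose 1.88-fold on day 2 against day 0 (0.91 ± 0.23, adjusted p = 0.0275) and 2.64-fold on day 5 against day 2 (1.40 ± 0.23, adjusted p = 0.017), and these calls ended under 6 and 5 of 12 settings and without any of arrays 1, 3, 8 and 9, or 10 and 12. Without the bright arrays these values were 0.87 (adjusted p = 0.153) and 1.32 (adjusted p = 0.242). On day 5 Ptger2 was 2.79-fold higher in bound than in unbound RNA (1.48 ± 0.23, adjusted p = 0.00368; without the bright arrays 1.41, adjusted p = 0.0866), against -0.26 on day 0 (95% interval -0.76 to 0.23). In unbound RNA its difference of day 5 against day 0 was 0.57 (adjusted p = 0.146). Fibroblast markers rose in bound RNA against day 0 for 2 of 6 genes on day 2 (median 1.03) and 3 of 6 on day 5 (median 0.86). Pericyte and smooth muscle markers rose for 1 of 6 (median 0.06) and 2 of 6 (median 0.62). Between bound day 5 and day 2, 0 of either list passed. The part of these cell types in the Ptger2 rise was not tested.

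Ptger3 encodes EP3, a PGE2 receptor that mainly lowers cyclic AMP and is known in the kidney from the thick ascending limb and collecting duct. It fell in bound RNA. Its log2 signals in bound RNA were 10.59, 11.55 and 11.73 on day 0, 10.50, 10.07 and 11.09 on day 2, and 8.77, 9.11 and 8.47 on day 5, and in unbound RNA 11.09, 11.18 and 11.41 on day 5 and 11.96, 12.35 and 12.50 on day 0. The bound arrays of day 5 were the lowest 3 of all 15 arrays, with a gap to every other group. The highest group mean was 12.27 ± 0.28 in unbound RNA of day 0 and the lowest 8.78 ± 0.32 in bound RNA of day 5, and the means of 11.29 ± 0.61 in bound RNA of day 0, 11.23 ± 0.17 in unbound RNA of day 5 and 10.55 ± 0.52 in bound RNA of day 2 lay between, each overlapping its neighbour. Ptger3 was 5.68-fold lower in bound RNA on day 5 than on day 0 (-2.51 ± 0.34, adjusted p = 0.00041), a call that held under every alternative (-3.43 to -2.29), and 5.44-fold lower in bound than in unbound RNA on day 5 (-2.44 ± 0.34, adjusted p = 0.00264; without the bright arrays -2.19, adjusted p = 0.0745). Against bound day 2 it was 3.40-fold lower (-1.77 ± 0.34, adjusted p = 0.0395), which ended under 6 of 12 settings and without any of arrays 7, 9, 10, 11 and 12. That value was -1.34 without the bright arrays (adjusted p = 0.324) and -1.93 without array 11 (adjusted p = 0.064). The differences of -0.98 between bound and unbound RNA on day 0 (adjusted p = 0.0917) and of -1.04 between unbound day 5 and day 0 (adjusted p = 0.0706) did not pass.

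Tubule markers were called in 2 of the 3 comparisons in which Ptger3 was. All 5 thick ascending limb markers (Umod, Slc12a1, Cldn16, Cldn10 and Kcnj1) were lower in bound than in unbound RNA on day 5, with a median difference of -1.97. In bound RNA of day 5 against day 0, 4 of these 5 fell (median -1.92), and so did 4 of 6 collecting duct markers (median -2.07), beside 9.99% of all genes. Between bound day 5 and day 2, where Ptger3 was called, 0 of either list was, with medians of -0.68 and -1.21. In the fit of probe sets, neither Ptger3 set passed there (adjusted p = 0.0612 and 0.216). Between bound day 2 and day 0, where Ptger3 read from its brightest set did not pass, 2 of 5 and 3 of 6 fell. There the second Ptger3 set fell (-2.77, adjusted p = 0.00844), and so did the mean of both sets (-1.75, adjusted p = 0.00679). The summed signal of the thick ascending limb list was 10529 to 14201 in bound RNA of day 5 and 22733 to 39524 in bound RNA of day 0, and the collecting duct sum was 861 to 1617 and 2103 to 7173. In unbound RNA the thick ascending limb sum was 28751 to 32048 on day 5 and 34861 to 43120 on day 0, and no marker of either list was at the background limit in any group. The fall in bound RNA of day 5 against day 0 was not limited to these 2 lists. Proximal tubule markers fell there for 4 of 5 genes (median -3.15), podocyte markers for all 3 (median -1.99) and endothelium markers (Pecam1, Cdh5, Kdr, Tek and Emcn) for 2 of 5 (median -1.40). Of the fibroblast markers 0 fell there. The part of tubule RNA or of other cells in the Ptger3 differences was not tested.

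Ptger4 encodes EP4, the other PGE2 receptor that raises cyclic AMP. Bound RNA gave Ptger4 log2 signals of 11.78, 11.31 and 11.36 on day 0, 11.66, 11.70 and 11.88 on day 2, and 11.50, 11.99 and 11.45 on day 5. In unbound RNA they were 11.95, 11.60 and 11.59 on day 5 and 10.21, 10.45 and 10.40 on day 0. The unbound arrays of day 0 lay below all 12 others, and the remaining 4 groups overlapped in order of level. Ptger4 was 2.19-fold higher in bound than in unbound RNA on day 0 (1.13 ± 0.22, adjusted p = 0.00833) and rose 2.57-fold in unbound RNA on day 5 against day 0 (1.36 ± 0.22, adjusted p = 0.00201). With arrays centred on their medians the adjusted p-values were 0.113 and 0.123 (differences 0.98 and 0.93), and without the bright arrays the first difference was 1.15 (adjusted p = 0.0721). Bound RNA differed from unbound RNA by -0.07 on day 5 (95% interval -0.54 to 0.40), and bound day 5 from bound day 0 by 0.16 (adjusted p = 0.626). Of the macrophage markers (Adgre1, Csf1r, Cd68, Itgam and C1qa), 2 of 5 rose in unbound RNA over the same days, with summed signals of 6780 to 8846 on day 5 and 3275 to 4598 on day 0, and Itgam was at the background limit in unbound RNA of day 0. Over the same days 4 of 6 fibroblast markers rose in unbound RNA, with summed signals of 23944 to 24634 on day 5 and 5391 to 7258 on day 0, and 3 of 6 pericyte and smooth muscle markers rose, with 11531 to 14434 on day 5 and 4812 to 6729 on day 0. No marker of the fibroblast, pericyte and smooth muscle lists was at the background limit in unbound RNA. The part of any of these cell types in the Ptger4 rise was not tested.

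Ptger1 encodes EP1, a PGE2 receptor that signals through calcium and is known from the collecting duct. It fell in unbound RNA. Its log2 signals in unbound RNA were 4.11, 3.78 and 5.35 on day 5 and 8.80, 9.38 and 8.28 on day 0. In bound RNA they were 8.19, 7.76 and 8.10 on day 0, 5.17, 7.28 and 3.47 on day 2, and 6.87, 4.83 and 7.52 on day 5. All 6 day 0 arrays lay above all 9 later arrays, 2 of 3 unbound arrays of day 5 were at or below the background limit, and the bound arrays of day 2 and day 5 were widely spread. The difference in unbound RNA was -4.41 ± 0.86 (adjusted p = 0.00694), and with each array set to at least its background limit it was -4.34 (adjusted p = 0.00134), a size bounded by that limit on 2 of 3 arrays. Read from this probe set or from the mean of both, it passed under every alternative with values between -5.15 and -2.56, while the second, dimmer set alone gave -0.70 and did not pass. In bound RNA the differences against day 0 were -2.71 on day 2 (adjusted p = 0.0702) and -1.61 on day 5 (adjusted p = 0.197), which did not pass. Over the same days, 3 of 6 collecting duct markers fell in unbound RNA (median -1.85), with summed signals of 3132 to 4467 on day 5 and 7257 to 10742 on day 0, and their part in the Ptger1 fall was not tested.

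Ptgfr encodes FP, the receptor for prostaglandin F2α. It fell in bound RNA. Its log2 signals in bound RNA were 7.51, 8.67 and 8.30 on day 0, 5.92, 5.83 and 8.04 on day 2, and 2.84, 6.74 and 3.35 on day 5, and in unbound RNA 6.53, 5.93 and 6.92 on day 5 and 8.95, 8.90 and 8.84 on day 0. On day 5, 2 of 3 bound arrays were at or below the background limit and the third, array 11, was well above it, while all 3 arrays lay below those of bound day 0. Measured against the background limit, Ptgfr was at least 8.45-fold lower in bound RNA on day 5 than on day 0, with a fitted difference of -3.85 ± 0.86 (adjusted p = 0.00809). The call ended without the bright arrays (-3.37, adjusted p = 0.0541) and with only the 2 groups fitted (adjusted p = 0.06), and the value was -5.06 without array 11 and -2.26 for the mean of its 5 probe sets. The differences of -2.15 between bound and unbound RNA on day 5 (adjusted p = 0.115) and of -2.44 between unbound day 5 and day 0 (adjusted p = 0.098) did not pass. Some alternatives changed this. Without array 11 the first was -3.37 (adjusted p = 0.0107). With the mean of all probe sets they were -1.27 (adjusted p = 0.0295) and -1.73 (adjusted p = 0.00728). Without the bright arrays they were -1.44 (adjusted p = 0.459) and -2.69 (adjusted p = 0.212).

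Hpgd, the dehydrogenase that starts the breakdown of prostaglandins, had lower signals in bound than in unbound RNA on day 5. Its log2 signals on day 5 were 9.23, 9.76 and 8.56 in bound RNA and 11.16, 11.19 and 10.44 in unbound RNA. On day 0 they were 9.77, 8.69 and 9.41 in bound RNA and 10.75, 10.38 and 10.19 in unbound RNA, and on day 2 bound RNA gave 9.69, 8.82 and 9.03. Bound and unbound arrays did not overlap on either day, and the 3 bound groups overlapped throughout. Hpgd was 3.34-fold lower in bound RNA on day 5 (-1.74 ± 0.38, adjusted p = 0.013), and the call ended without the bright arrays (-1.67, adjusted p = 0.106) and without array 13 or array 14. On day 0 the difference of -1.15 had an adjusted p of 0.081. Against bound day 0 the difference was -0.10 on day 5 (95% interval -0.93 to 0.72). The 5 thick ascending limb markers given beside Ptger3 were lower in bound than in unbound RNA on day 5 too (median -1.97). So were 3 of 6 collecting duct markers (median -1.57) and 3 of 5 endothelium markers (median -1.88), and 0 markers of these lists were higher. Proximal tubule and macrophage markers had medians of -1.51 and -1.69 there, with 0 of 5 called in each list. The medians of fibroblast, pericyte and smooth muscle, and podocyte markers went the other way (0.77, 1.49 and 3.16). Between bound day 5 and bound day 0, where Hpgd did not pass, 4 of the 5 thick ascending limb markers fell. The part of these cell types in the Hpgd difference was not tested.

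Whether enrichment itself differed between day 5 and day 0 was tested as the difference of both bound-minus-unbound differences. None of the 9 genes passed (adjusted p below 0.05), beside 0.0178% of all genes (3 genes), and 4 of the 9, the EP receptor genes, had an unadjusted p under 0.05, beside 14.2% of all genes. The median of the 9 was -0.55, beside 0.09 over all genes. Ptger2 had the smallest adjusted p, with a difference of 1.74 (95% interval 1.04 to 2.45, adjusted p = 0.0758). The values were -1.20 for Ptger4 (adjusted p = 0.158), -1.46 for Ptger3 (adjusted p = 0.225) and 2.80 for Ptger1 (adjusted p = 0.333). For Ptger1, 2 of 3 unbound arrays of day 5 were at or below the background limit. The mean of its probe sets gave 1.49 (adjusted p = 0.449), and its second set alone gave 0.19 (adjusted p = 0.939). With array weights in limma 5 of 9 passed (Ptger1, Ptger2, Ptger3, Ptger4 and Ptgfr), where 1936 of all genes passed, and with arrays centred on their medians the Ptger4 value was -0.29.

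Genes with several probe sets did not always give the same call. In a fit of 31993 probe sets, all 20 probe sets of the list were tested. The second set of Ptger3 had log2 signals in bound RNA of 11.47, 12.16 and 12.38 on day 0, 10.78, 8.91 and 8.03 on day 2, and 7.89, 7.49 and 7.55 on day 5, and in unbound RNA of 9.75, 9.91 and 9.99 on day 5 and 12.14, 12.10 and 12.19 on day 0. This set fell in bound RNA on day 2 (-2.77, adjusted p = 0.00844) and day 5 (-4.36, adjusted p = 0.000288) and in unbound RNA on day 5 (-2.26, adjusted p = 0.0229), while the first set passed only on day 5 in bound RNA among these comparisons. Of the 5 Ptgfr sets, 3 fell in bound RNA on day 5 (-3.85, -2.60 and -3.46), and the other 2 gave -0.46 and -0.96 near the background limit. Both Ptger4 sets rose in unbound RNA on day 5 (1.36 and 2.12), and on day 0 the second gave 1.01 for enrichment without passing. The second Ptger1 set fell in bound RNA on day 2 (-1.95, adjusted p = 0.0417), where all 3 arrays were at or below the background limit, which bounds this size. In unbound RNA on day 5 the set gave -0.70, which did not pass. Both Hpgd sets were lower in bound RNA on day 5 (-1.74 and -1.59), and the second was lower on day 0 as well (-1.29, with an adjusted p just under the threshold). Of the 3 Ptges sets, 1 passed for enrichment, on day 5 (1.81, adjusted p = 0.0205), and it was not the brightest set used for the gene. Neither Ptgs2 set passed in any comparison.

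**Figure D3:**
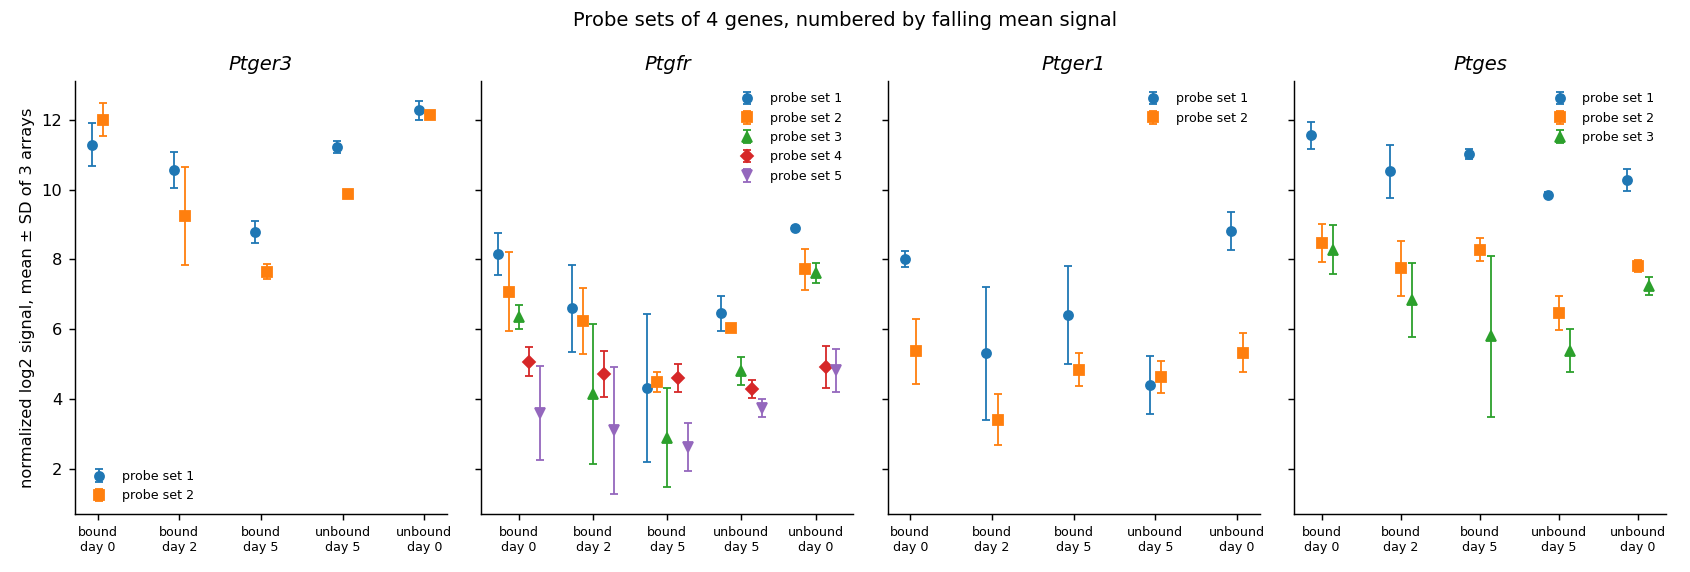
Normalized log2 signal, as mean and SD of 3 arrays, of each probe set of Ptger3, Ptgfr, Ptger1 and Ptges, in bound RNA of day 0, day 2 and day 5 and in unbound RNA of day 5 and day 0. Symbols mark the probe sets of a gene, numbered by falling mean signal. Both Ptger3 sets are lowest in bound RNA of day 5, where their means were 8.78 and 7.65.

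Other genes of prostanoid metabolism, transport and reception were taken from a list of 25, of which 22 were tested. Ptges3 and Akr1b3 were not analysed here, and Pla2g2a did not pass the filter on low signals. Calls for the tested genes are given with all arrays only, and whether they held without the bright arrays is not given. Of the 22, 2 were higher in bound RNA and 0 lower on day 0 (8.91% of all genes called), and 1 was higher and 3 lower on day 5 (14.1%). In bound RNA, 1 rose and 1 fell on day 2 against day 0 (9.25%), 2 rose and 4 fell on day 5 against day 0 (23.7%), and 0 passed between day 5 and day 2 (0.587%). In unbound RNA, 0 rose and 2 fell on day 5 against day 0 (10.4%). Upstream, Pla2g4a, the cytosolic phospholipase that releases arachidonic acid, was higher in bound than in unbound RNA on day 0 (1.57 ± 0.44, adjusted p = 0.0468). Pla2g12a, a secreted phospholipase, fell in bound RNA on day 5 against day 0 (-1.04 ± 0.34, adjusted p = 0.044). Mgll, the lipase that frees arachidonic acid from a monoglyceride, fell in bound RNA on day 2 (-1.04 ± 0.20) and day 5 (-1.35 ± 0.20) and in unbound RNA on day 5 (-1.74 ± 0.20), each against day 0 of its own fraction (adjusted p = 0.00621, 0.000676 and 0.000231).

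Among the synthases, Ptges2, a membrane-associated PGE2 synthase, fell on day 5 against day 0 in bound RNA (-0.69 ± 0.22, adjusted p = 0.0422) and in unbound RNA (-0.86 ± 0.22, adjusted p = 0.0299). Ptgds, which makes prostaglandin D2, was lower in bound than in unbound RNA on day 5 (-1.83 ± 0.40, adjusted p = 0.0131). Hpgds, the hematopoietic form of that enzyme, was above the background limit on all 3 arrays only in unbound RNA of day 5, at 6.65, 6.62 and 6.63, and passed in no comparison. Tbxas1, the thromboxane synthase, differed by -1.29 between bound and unbound RNA on day 0 (adjusted p = 0.186) and by -0.81 on day 5 (adjusted p = 0.37).

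Ptgir, the receptor for the product of Ptgis, passed in 3 comparisons. Its log2 signals in bound RNA were 7.84, 7.90 and 7.23 on day 0, 7.60, 9.46 and 8.70 on day 2, and 9.11, 9.34 and 8.52 on day 5, and in unbound RNA 7.30, 7.34 and 6.77 on day 5 and 5.99, 6.01 and 6.09 on day 0. Bound arrays lay above unbound arrays of the same day without overlap. Ptgir was 3.09-fold higher in bound RNA on day 0 (1.63 ± 0.40, adjusted p = 0.0277) and 3.61-fold on day 5 (1.85 ± 0.40, adjusted p = 0.0125), and it rose in bound RNA on day 5 against day 0 (1.34 ± 0.40, adjusted p = 0.0314). The part of the cell types whose markers are given beside Ptger2 was not tested for this rise either. Tbxa2r, the thromboxane receptor, differed by 0.70 between bound and unbound RNA on day 5 (adjusted p = 0.206). Ptgr1, a reductase of prostaglandin and leukotriene metabolites, rose in bound RNA on day 2 (1.18 ± 0.31, adjusted p = 0.0317) and day 5 (1.91 ± 0.31, adjusted p = 0.00122). Its relative Ptgr2 fell there on day 5 (-1.11 ± 0.24, adjusted p = 0.0065) and was lower in bound than in unbound RNA on that day (-1.13 ± 0.24, adjusted p = 0.0111). Abcc4, a pump that exports prostaglandins, was also lower in bound RNA on day 5 (-1.48 ± 0.38, adjusted p = 0.0261).

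**Figure D4:**
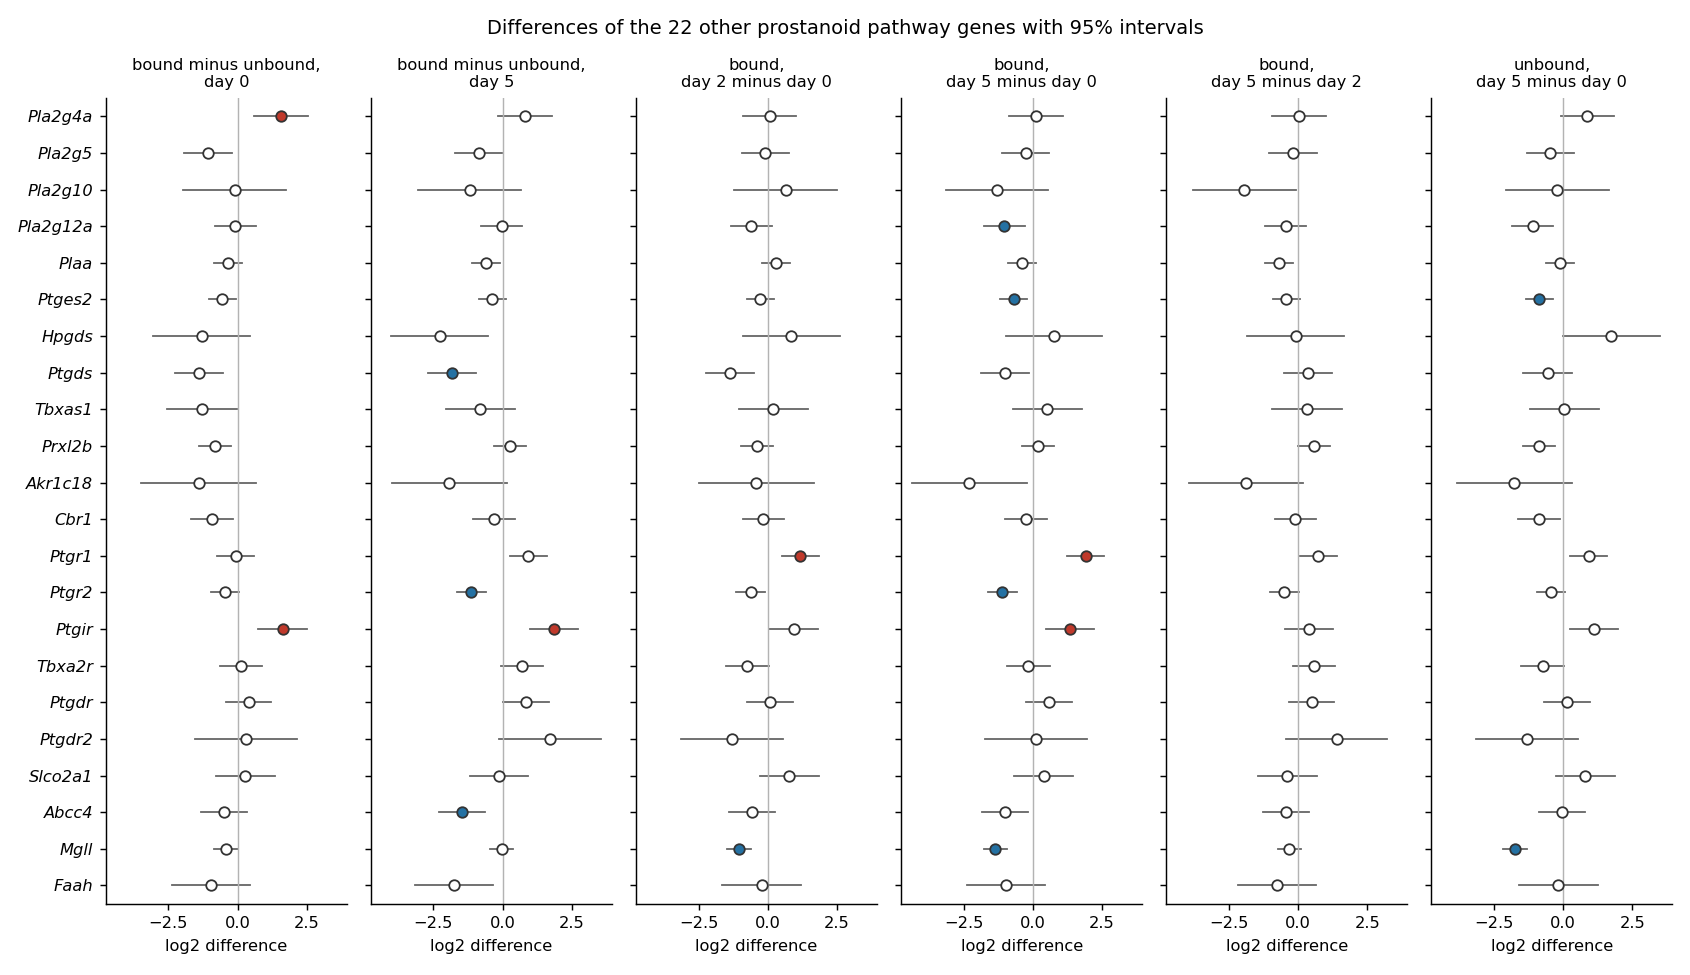
Log2 differences (x axis) with 95% confidence intervals for the 22 other prostanoid pathway genes in 6 comparisons, with filled points where the difference passed, red for higher and blue for lower. Ptgir is filled in both enrichment comparisons and Mgll in every time comparison against day 0 of the same fraction.

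The genes whose signal followed Ptgis, Ptger3 and Hpgd most closely over the 15 arrays are given as a description, since all arrays share the group structure. For Ptgis these were Stbd1 (Pearson r = 0.964), Des (0.963), which encodes the muscle filament desmin, and Snx33 (0.962). For Ptger3 they were Strip2 (0.970), Sall1 (0.965) and Sox6 (0.964), both of the last being transcription factors. For Hpgd they were Wdr38 (0.904), Cldn16 (0.896), a tight junction protein of the thick ascending limb, and Grb7 (0.893).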

How the data were processed

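The values are the authors' deposited linear probe set intensities of 15 one-colour arrays. For summary algorithm, background correction and scaling, the method is not given in the sources used here. Array medians lay between 16.4 and 198.7. Intensities were transformed as log2(intensity + 1) and quantile normalized. The 45037 probe sets besides 64 controls matched 1 gene (34945), several (932) or none (9160) in the platform annotation, with symbols updated through RefSeq. Each of 18193 genes was read from its brightest probe set, and 16864 exceeded, on 3 arrays or more, the 25th percentile of all probe sets. The background limit was the highest of 27 negative controls. No pairs of arrays held identical values.

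Groups came from the labels. Each group had 1 coefficient in a limma model (version 3.58.1, R 4.3.3) with 7 contrasts, 10 residual and 2.32 prior degrees of freedom and Benjamini-Hochberg adjustment over all genes. Where a group mean was at or below the background limit, folds were computed against that limit and written as at least that fold. The model was tested on simulated data. Members, gene lists, rules for named genes and alternatives were chosen with earlier results of these data known. Promoters came from RefSeq (8 of the 10 genes had an entry). Alternatives were another filter or none, median centring, values set to the background limit, the mean of all probe sets, each probe set alone, a pseudocount of 16, array weights, a trended prior, a brightness covariate, no bright arrays, only the groups compared, and leaving out each array. Figures were drawn with matplotlib 3.10.9.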

Additional observations from a re-analysis of the deposited data

How the results depend on the processing

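No paired analysis was possible because the labels' array numbers run from 1 to 15 and no groups share one. Whether bound and unbound RNA came from the same kidneys is not stated in the labels, so the enrichment tests treat them as separate. The 16 called differences of the 9 genes were recomputed 288 times under the alternatives: 231 kept their call, 57 lost it and 0 changed sign. Of the 47 differences that had not passed, 42 of 900 recomputed values passed and 42 changed sign. Without the 4 bright arrays 11 of the 16 calls ended, a setting that also leaves fewer arrays, and with arrays centred on their medians 6 ended. The cause was not tested. For enrichment on day 0, where 3 genes passed, 1 passed with median centring, 5 with array weights, 5 with a trended prior and 1 without the bright arrays. For enrichment on day 5, where 5 passed, 0 passed without the bright arrays, where 1 of all genes passed. With array weights 7 passed, and leaving out 1 array gave 3 to 5. For the change in enrichment, where 0 passed, 1 passed with values set to the background limit, 5 with array weights and 1 with only the groups compared. For bound day 2 against day 0, where 1 passed, 2 passed with the 50th percentile filter, background limit, pseudocount of 16 or trended prior, 3 with the mean of all probe sets, and 0 with median centring, array weights, the brightness covariate, only the groups compared or no bright arrays, and leaving out 1 array gave 0 to 3. For bound day 5 against day 2, where 2 passed, 1 passed with each probe set tested, a trended prior or the brightness covariate, and 0 with median centring, array weights, only the groups compared or no bright arrays, and leaving out 1 array gave 0 to 3. For unbound day 5 against day 0, where 2 passed, 4 passed with the mean of all probe sets, a pseudocount of 16 or only the groups compared, and 6 with array weights. For bound day 5 against day 0, where 3 passed, every alternative gave 2 or 3.

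The counts over all genes moved more. They were 1502 (313 to 4306 over the alternatives) for enrichment on day 0, 2380 (1 to 6038) on day 5, 3 (1 to 1936) for the change in enrichment, 1560 (246 to 2724) for bound day 2 and 3996 (2117 to 6157) for bound day 5 against day 0, 99 (0 to 1296) for bound day 5 against day 2 and 1747 (599 to 5280) for unbound day 5 against day 0. Signals near the background limit restrict Ptgfr, Ptger1 and Hpgds.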
